A study of Mus musculus with 20 samples.

Results

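The serotonin receptor genes of the mouse lumbar dorsal root ganglion, which houses the somata of the neurons that sense touch, itch and pain, were followed across a Prdm12 knockout and a formalin injection. The 10 genes Htr3a, Htr3b, Htr1a, Htr1b, Htr1d, Htr1f, Htr2a, Htr2b, Htr5a and Htr7 were taken by symbol from the 55416 gene IDs of the deposited count files. They were chosen by gene family and not by a cut on a measured value, but with earlier results of these data known. The 4 further serotonin receptor genes (Htr2c, Htr4, Htr5b and Htr6) are described with the pathway.

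Serotonin (5-hydroxytryptamine) is released from platelets, mast cells and descending spinal fibres, and it excites or quiets the endings of sensory neurons according to the receptor it meets. Htr3a and Htr3b encode subunits of a cation channel of the cys-loop family that opens when serotonin binds; the A subunit can form the channel alone, and the B subunit needs the A subunit. The other 8 genes encode G protein-coupled receptors. Htr1a, Htr1b, Htr1d, Htr1f and Htr5a act through Gi/o proteins, which lower cyclic AMP, Htr2a and Htr2b through Gq and phospholipase C, and Htr7 through Gs, which raises cyclic AMP. The Htr1b, Htr1d and Htr1f receptors are the targets of antimigraine drugs, and Htr2a, Htr3a and Htr7 have been studied for their part in inflammatory pain and itch.

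Ganglia of 10 adult C57Bl6 mice gave 2 polyA libraries each, 1 after formalin, an irritant that causes pain and inflammation, and 1 noninjected, all at 1 month after tamoxifen. Controls carried floxed Prdm12 alleles (P12 Fl/Fl) and received tamoxifen too. The inducible conditional knockouts (icKO) carried, beside these alleles, a tamoxifen-activated Cre recombinase, named AdvCreERT2 (a driver active in sensory neurons) in the sample records and Rosa26CreERT2 (a driver active in most cells) in the series text. No source used here states the site, dose or timing of formalin. Prdm12 is a transcriptional regulator needed for nociceptor development and still made by adult nociceptors.

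The genotype of 4 of the 10 animals differed between the records. The animals titled control 1 and control 4 have icKO in their deposited names, and those titled icKO 2 and icKO 3 have control there. Animals are called by their titles below, and the groups follow the deposited names unless stated, as in 5 control and 5 icKO animals. Control 1, control 2, icKO 1, icKO 2 and icKO 3 are females. Control 3, control 4, control 5, icKO 4 and icKO 5 are males. Prdm12 itself separated by deposited name, at 90.6 ± 11.7 CPM (counts scaled to an equal library total; SD, n = 5) in controls and 23.8 ± 6.26 CPM (n = 5) in icKO animals, with both libraries of an animal summed. The control animals ranged from 73.2 to 100.4 CPM and the icKO animals from 17.97 to 33.2 CPM, so the groups did not overlap (exact two-sided permutation test, p = 0.00794, the smallest that 5 against 5 allows). By title the means were 68.2 ± 35.8 and 46.3 ± 37.2 CPM and the groups overlapped (exact permutation p = 0.238). Tests below are given by deposited name, the grouping set by the plan and not by this check. Calls that changed in the 6 animals whose records agree, or by title, are stated.

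The noninjected and formalin comparisons rest on 19 libraries of 11763893 to 22392635 counts; the formalin library of icKO 1 was too small to use, so the icKO formalin group has 4 libraries. Markers of the 8-gene pan-sensory neuron list (Isl1, Pou4f1, Prph, Rbfox3, Tubb3, Uchl1, Snap25 and Avil) were present in every group, and a list of 5 spinal cord markers summed to at most 7.62 CPM in any library, with Mnx1 at 0 in the noninjected controls and the formalin icKO group. Markers of other cells moved with the groups. Summed erythroid markers were 105 to 244 CPM in control formalin libraries and 310 to 1360 CPM in icKO formalin libraries, and 4 summed neutrophil markers were 139 to 656 and 544 to 2533 CPM. In noninjected libraries the pan-sensory sum was 7192 to 8742 CPM in controls and 8707 to 10794 CPM in icKO animals. The part of these markers in the results was not tested. In whole ganglia, fewer cells of a type and less RNA per cell cannot be told apart.

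Htr3a was by far the most abundant of the 10 transcripts. In noninjected control ganglia it stood at 71.1 ± 9.41 CPM per kilobase of exon (SD, n = 5), and across all 19 libraries it made up 53.0% to 74.3% of the summed level of the 10 genes per kilobase. Htr1d (9.78 ± 0.981) and Htr3b (9.39 ± 0.991) followed, and their ranges overlapped. Below them came Htr1b at 4.93 ± 0.767, Htr2a at 4.23 ± 0.472, Htr7 at 3.59 ± 0.485 and Htr1f at 2.94 ± 0.39 CPM per kilobase, each overlapping its neighbour in the order. Htr1a (2.03 ± 0.324) and Htr5a (1.05 ± 0.132) were lower without overlap. Htr2b was at the edge of detection at 0.0933 ± 0.074 CPM per kilobase, with 1 to 15 counts in any library. The order depends on the length used: with coding length, 6 of the 10 genes kept their rank, and Htr1b moved to rank 3 above Htr3b.

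**Figure D1:**
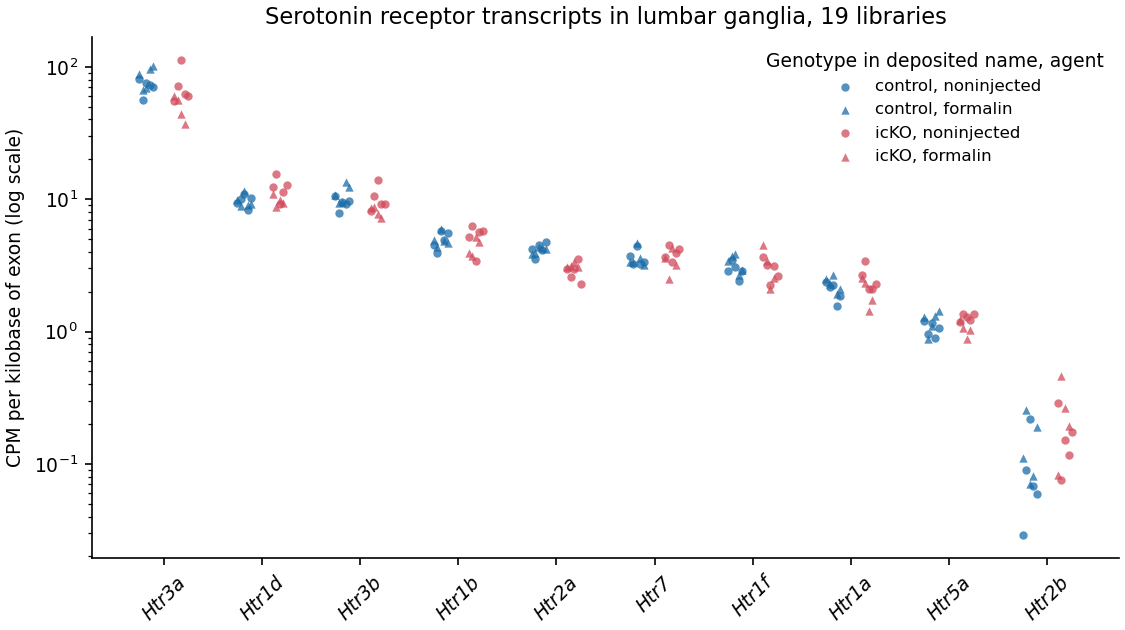
Levels of the 10 serotonin receptor genes in each of the 19 libraries (points), in CPM per kilobase of exon on a log axis, by genotype in the deposited name (colour) and agent (shape). Htr3a lies between 37.2 and 112 in every library, and Htr2b lies under 0.462.

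Between genotypes, Htr2a was lower in icKO ganglia in each comparison made by deposited name. Htr3a and Htr3b were lower in icKO ganglia after formalin and not in noninjected ganglia, and Htr1a and Htr1d were higher in noninjected icKO ganglia. Tests were edgeR's quasi-likelihood test with sex as a covariate and Benjamini-Hochberg adjustment over all genes. In noninjected ganglia, 2 of the 9 members tested were called higher and 1 lower at an adjusted p of 0.05, where 4.81% of the 17931 genes tested were called higher and 3.57% lower. After formalin, 0 were called higher and 3 lower, against 2.85% higher and 1.04% lower of all genes. On animal totals, 1 of 10 was lower and 0 higher, against 0.489% lower and 0.586% higher of 19441 genes. The median log2 difference of the members was 0.08 noninjected and -0.17 after formalin, and that of all genes was -0.01 in both.

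**Figure D2:**
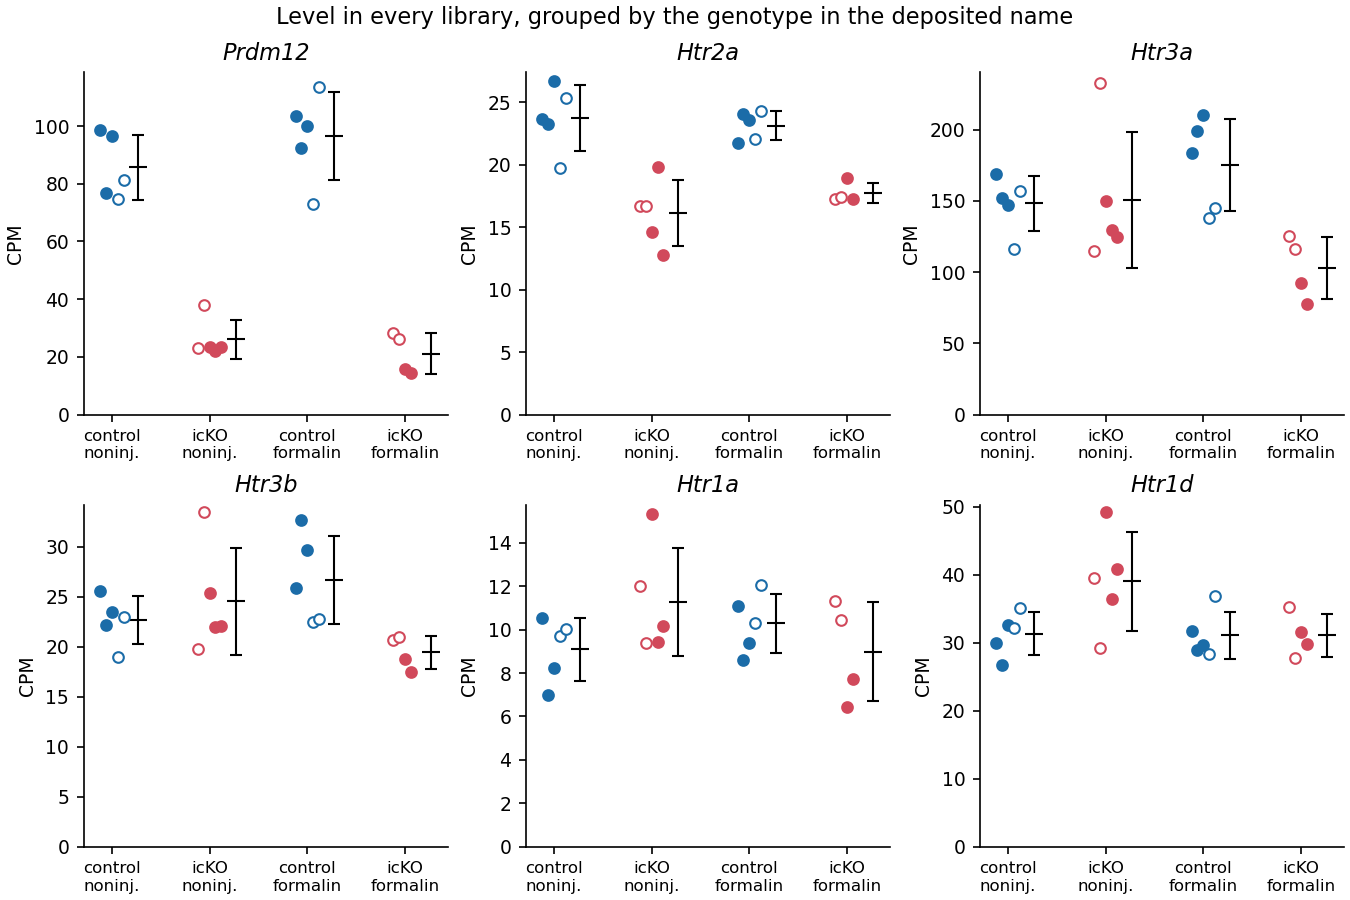
CPM of Prdm12 and of the 5 serotonin receptor genes called in a genotype comparison, in every library; filled points are animals whose records agree and open points animals whose title gives the other genotype, and bars show the mean ± SD of each group. The genotype groups do not overlap for Htr2a, Htr3a and Htr3b after formalin, where the open points of Htr2a lie with the group of their deposited name. Among noninjected libraries the open control point of icKO 2 (19.7 CPM of Htr2a) lies just below the filled icKO point of icKO 4 (19.8 CPM).

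Htr2a encodes a Gq-coupled receptor, 1 of those through which serotonin can excite and sensitise nociceptors. In the noninjected libraries named control it measured 19.7 CPM in the animal titled icKO 2, 25.4 in icKO 3, 23.6 in control 2, 23.2 in control 3 and 26.7 in control 5. In the noninjected libraries named icKO it measured 14.6 CPM in icKO 1, 19.8 in icKO 4, 12.8 in icKO 5, 16.7 in control 1 and 16.7 in control 4. The groups touched at a single point, since icKO 4 was just above icKO 2, and all other icKO values lay below all control values.

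After formalin, the control libraries held 22.1 CPM in icKO 2, 24.3 in icKO 3, 21.7 in control 2, 24.1 in control 3 and 23.5 in control 5. The icKO libraries held 18.9 CPM in icKO 4, 17.2 in icKO 5, 17.3 in control 1 and 17.4 in control 4. The groups did not overlap, and both were tight. The icKO level was 0.671 times the control level in noninjected ganglia (log2 -0.58, SE 0.10, edgeR adjusted p = 0.00321) and 0.750 times after formalin (log2 -0.41, SE 0.11, adjusted p = 0.040). On animal totals it was 0.700 times (log2 -0.52, SE 0.09, adjusted p = 0.016), with 20.9 to 24.9 CPM in controls and 14.4 to 19.1 CPM in icKO animals.

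The noninjected Htr2a difference kept its call in 19 of 20 alternative settings and lost it only when animals were grouped by title (log2 -0.24, SE 0.18, adjusted p = 0.708). In the 6 animals with agreeing records it was -0.63 (SE 0.15, adjusted p = 0.0324) in noninjected ganglia, but -0.38 (SE 0.17, adjusted p = 0.163) after formalin and -0.55 (SE 0.12, adjusted p = 0.0811) on totals, which did not pass. Scaled to the neuron markers, the noninjected groups separated and the formalin groups did not. Per 1000 CPM of the summed pan-sensory markers, noninjected controls held 2.98 ± 0.15 CPM of Htr2a (2.74 to 3.10) and icKO animals 1.71 ± 0.295 (1.35 to 2.08), without overlap. After formalin the scaled values were 2.72 ± 0.194 (2.51 to 2.94) in controls and 2.39 ± 0.376 (1.93 to 2.85) in icKO libraries, which overlapped. Satellite glia markers were also lower in noninjected icKO ganglia (1348 to 1881 CPM summed in controls, 1039 to 1130 in icKO animals, 2 of 5 genes called), and their part in the Htr2a value was not tested. The Htr2a call on totals was lost without control 3 (-0.53) and without control 5 (-0.50). The Htr2a call after formalin was less stable, kept in 7 alternative settings and lost in 13. With each animal left out in turn, it was kept in 2 of 10 fits (edgeR adjusted p from 0.0426 to 0.179).

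The sequence before the start of Htr2a is shown with those of Htr3b, Htr1a and Htr1d, the other called members with an entry in RefSeq's table, to set beside each other the promoters of genes that moved in different directions. Of the 10 members, 9 matched the table. Each line gives 250 bases up to the RefSeq start (GRCm38.p6; the counts were made on GRCm39). Capitals mark matches on either strand to CANNTG (E-box), TGTGGT (RUNX), TAATTA (homeodomain), TGACGTCA (CRE), TATAAA and GGGCGG (GC box).

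Htr2a, chr14:74640624-74640873, plus strand: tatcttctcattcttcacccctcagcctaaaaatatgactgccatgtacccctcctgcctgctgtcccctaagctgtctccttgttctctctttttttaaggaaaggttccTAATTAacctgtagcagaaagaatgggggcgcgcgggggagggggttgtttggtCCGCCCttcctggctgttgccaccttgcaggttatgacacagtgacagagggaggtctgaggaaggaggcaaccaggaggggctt

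Htr3b, chr9:48964991-48965240, minus strand: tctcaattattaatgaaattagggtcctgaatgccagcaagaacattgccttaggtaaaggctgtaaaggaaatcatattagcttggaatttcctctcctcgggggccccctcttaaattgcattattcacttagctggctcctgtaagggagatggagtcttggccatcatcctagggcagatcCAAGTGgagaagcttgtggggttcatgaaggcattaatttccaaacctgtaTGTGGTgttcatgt

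Htr1a, chr13:105443443-105443692, plus strand: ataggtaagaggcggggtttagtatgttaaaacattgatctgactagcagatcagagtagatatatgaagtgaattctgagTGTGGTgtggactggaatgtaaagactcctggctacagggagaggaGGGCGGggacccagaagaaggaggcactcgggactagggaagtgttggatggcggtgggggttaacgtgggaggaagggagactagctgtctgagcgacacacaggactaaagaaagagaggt

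Htr1d, chr4:136423274-136423523, plus strand, the upstream of its 2 starts: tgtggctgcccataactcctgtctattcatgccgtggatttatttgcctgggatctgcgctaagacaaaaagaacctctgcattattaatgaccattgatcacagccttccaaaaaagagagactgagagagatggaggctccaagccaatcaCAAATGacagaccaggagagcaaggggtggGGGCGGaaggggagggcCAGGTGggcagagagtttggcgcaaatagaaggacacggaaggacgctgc

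The Htr2a window holds a TAATTA beginning 139 bases before the start, a motif found in 4.84% of the 32851 windows of this length, and a GC box at 85 bases (32.7% of windows). The Htr3b window has an E-box at 65 bases (66.2% of windows) and a TGTGGT at 14 bases (14.0%). TGTGGT is also in the Htr1a window, at 169 bases, with a GC box at 123 bases. The Htr1d window has E-boxes at 97 and 50 bases and a GC box at 67 bases. None of the 4 windows has TATAAA (12.4% of windows) or TGACGTCA (1.55%). The matches are letters only, and no binding was measured.

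Htr3a and Htr3b, the channel subunits, were lower in icKO ganglia after formalin and were not called in noninjected ganglia. Htr3a measured 116 CPM in icKO 2, 157 in icKO 3, 169 in control 2, 152 in control 3 and 147 in control 5 among noninjected controls. Among noninjected icKO libraries it measured 150.1 CPM in icKO 1, 129 in icKO 4, 125 in icKO 5, 115 in control 1 and 232 in control 4. The groups overlapped widely, with control 4 above all others, and the difference was near 0 (log2 -0.01, SE 0.18, edgeR adjusted p = 0.989).

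After formalin, Htr3a measured 138 CPM in icKO 2, 145 in icKO 3, 183 in control 2, 199 in control 3 and 210.0 in control 5. The icKO libraries held 92.4 CPM in icKO 4, 77.6 in icKO 5, 125 in control 1 and 116 in control 4. The groups did not overlap. In each, the animals whose records agree lay farther out than those whose records differ. The icKO level was 0.575 times that of controls (log2 -0.80, SE 0.20, edgeR adjusted p = 0.0366).

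Htr3b gave the same picture at a lower level. After formalin, control libraries held 22.4 CPM in icKO 2, 22.8 in icKO 3, 25.8 in control 2, 32.6 in control 3 and 29.7 in control 5, and icKO libraries 18.7 CPM in icKO 4, 17.5 in icKO 5, 20.6 in control 1 and 20.9 in control 4. The groups did not overlap, though icKO 2 and control 4 were close. The icKO level was 0.709 times that of controls (log2 -0.50, SE 0.14, edgeR adjusted p = 0.0478). With the animal as a random block in limma-voom it was -0.48 (adjusted p = 0.0742). Noninjected, the means were 22.6 ± 2.39 and 24.5 ± 5.36 CPM (n = 5 each; log2 0.08, SE 0.13, adjusted p = 0.717).

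The formalin differences of Htr3a and Htr3b were larger in the 6 animals with agreeing records, where the icKO arm has 2 formalin libraries: -1.18 for Htr3a (SE 0.12, edgeR adjusted p = 0.000617) and -0.68 for Htr3b (SE 0.14, adjusted p = 0.0122). Those 2 libraries, of icKO 4 and icKO 5, are from males, while the controls there include a female, control 2. By title the Htr3a and Htr3b differences were -0.58 (SE 0.23, edgeR adjusted p = 0.366) and -0.34 (SE 0.16, adjusted p = 0.381). In those 6 animals, 0 members were called higher and 2 lower, against 6.33% higher and 2.81% lower of all genes. The call rested on few libraries: without the icKO 5 formalin library, the Htr3a difference was -0.68 (SE 0.21, adjusted p = 0.104) and none of Htr2a, Htr3a and Htr3b passed. That library had the highest summed skeletal muscle markers, 1446 CPM against 8.89 to 23.7 CPM in control formalin libraries, and the lowest pan-sensory sum, 6044 CPM. The formalin libraries of icKO 4 and icKO 5 were rich in blood cell transcripts. Without both, a choice made for that reason after the data were seen, Htr3a was at -0.54 (SE 0.23, edgeR adjusted p = 0.456). Per 1000 CPM of pan-sensory markers, Htr3a after formalin was 20.7 ± 4.69 in controls (15.0 to 26.2) and 13.6 ± 1.78 in icKO libraries (11.7 to 15.9), so the groups then overlapped. Peptidergic nociceptor markers moved the same way after formalin, with 2 of 6 called lower, a median of -0.65, and sums of 2466 to 3327 CPM in controls and 1959 to 2491 CPM in icKO libraries. Non-peptidergic nociceptor markers, with 1 of 6 called lower and a median of -0.24, summed to 2089 to 2522 CPM in controls and 1151 to 2064 CPM in icKO libraries, without overlap. The part of either list in the Htr3a and Htr3b values was not tested. Leaving out control 2, control 3, control 5, icKO 3 or icKO 4 with both its libraries also left 0 members called after formalin, and leaving out icKO 2 left 1. In the main fit 511 of 17931 genes were called higher and 186 lower after formalin. Those counts were 377 and 89 of 18024 without control 2, and 40 and 26 of 18016 without control 3. They were 41 and 33 of 18017 without control 5, and 67 and 42 of 17833 without icKO 3. Without icKO 4 they were 73 and 46 of 17849, and without icKO 2 they were 556 and 162 of 17839.

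The ratio of the channel's subunits, Htr3a to Htr3b per kilobase, ranged from 5.14 to 8.22 over the 19 libraries, with means of 7.56 ± 0.386 in noninjected controls, 7.59 ± 0.574 in formalin controls, 6.999 ± 0.599 in noninjected icKO and 6.07 ± 0.823 in formalin icKO libraries. The formalin icKO ratios were below all formalin control ratios, 5.14 to 7.03 against 7.05 to 8.22, with the edges nearly touching. The lowest came from the formalin libraries of icKO 5 (5.14) and icKO 4 (5.71), those rich in blood cell transcripts. The difference in this ratio was not tested. Over the 10 animal totals, Htr3a and Htr3b varied together (Pearson r = 0.96, Spearman rho = 0.95, a description over animals that share genotype groups). The gene most like each of them over these totals was the same, Mpped1, with r = 0.97 for Htr3a and 0.96 for Htr3b. Gpr19 (r = 0.95) and Pde8b (r = 0.95) came next for Htr3a, and Pde8b (r = 0.93) and Olfm2 (r = 0.92) for Htr3b. The genes most like Htr2a were Rdh11 (r = 0.96), Zdhhc13 (r = 0.95) and Cog6 (r = 0.95).

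Of the 5 Gi/o-coupled members, Htr1d and Htr1a were higher in noninjected icKO ganglia. Htr1d, an inhibitory receptor of sensory nerve endings, measured 32.2 CPM in icKO 2, 35.1 in icKO 3, 29.98 in control 2, 26.7 in control 3 and 32.6 in control 5 among noninjected controls. The noninjected icKO libraries held 49.2 CPM in icKO 1, 36.4 in icKO 4, 40.8 in icKO 5, 39.5 in control 1 and 29.2 in control 4. All icKO libraries but that of control 4 lay above every control. The icKO level was 1.27 times that of controls (log2 0.35, SE 0.10, edgeR adjusted p = 0.0348), and in the 6 agreeing animals the difference was 0.51 (SE 0.11, adjusted p = 0.0266).

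Htr1a measured 9.72 CPM in icKO 2, 10.01 in icKO 3, 10.5 in control 2, 6.99 in control 3 and 8.25 in control 5 among noninjected controls. The noninjected icKO libraries held 15.3 CPM in icKO 1, 9.44 in icKO 4, 10.2 in icKO 5, 12.01 in control 1 and 9.38 in control 4. The groups overlapped, and icKO 1 stood highest. The icKO level was 1.30 times that of controls (log2 0.38, SE 0.11, edgeR adjusted p = 0.045). With the animal as a random block in limma-voom it was 0.37 (adjusted p = 0.0535), and the edgeR call was lost in the 6 agreeing animals (0.44, SE 0.15, adjusted p = 0.0955). In those 6 animals, 1 member (Htr1d) was called higher and 1 (Htr2a) lower in noninjected ganglia, where 3.83% of all genes were called higher and 0.877% lower.

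Both differences were also set against the neuron markers. Per 1000 CPM of summed pan-sensory markers, noninjected Htr1d was 3.95 ± 0.434 in controls and 4.12 ± 0.641 in icKO animals, and Htr1a was 1.15 ± 0.232 and 1.18 ± 0.191 (n = 5 each), so neither group stood apart. The pan-sensory markers themselves had a median log2 difference of 0.32 in noninjected ganglia, with 0 of 8 called. Their part in the Htr1d and Htr1a values was not tested. Without icKO 1, the noninjected library with the highest pan-sensory sum, the differences were 0.28 for Htr1d and 0.31 for Htr1a and neither was called. Neither was called either without control 2, control 3, icKO 2 or icKO 5, each left out in turn, nor Htr1d without icKO 4 or Htr1a without icKO 3. After formalin neither gene passed the test of genotype (Htr1d 0.07, SE 0.11, edgeR adjusted p = 0.778; Htr1a -0.06, SE 0.12, adjusted p = 0.827).

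The remaining Gi/o-coupled members passed no test of genotype. Htr1b, a close relative of Htr1d, ranged from 15.99 to 29.7 CPM over the 19 libraries, at log2 0.08 (SE 0.15) in noninjected and -0.17 (SE 0.16) in formalin ganglia. Htr1f, a receptor of trigeminal and other sensory neurons, ranged from 5.40 to 11.6 CPM, at 0.08 (SE 0.14) and 0.04 (SE 0.14). Htr5a ranged from 4.68 to 7.69 CPM, at 0.28 (SE 0.14, edgeR adjusted p = 0.204) and -0.19 (SE 0.15, adjusted p = 0.529).

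Htr7, the Gs-coupled member, ranged from 8.53 to 15.98 CPM and differed by 0.16 (SE 0.14, edgeR adjusted p = 0.481) in noninjected ganglia and by -0.05 (SE 0.15, adjusted p = 0.898) after formalin. Htr2b, the second Gq-coupled member, was too low for the filter in the test of libraries. Its counts were 1 to 8 in noninjected and 2 to 11 in formalin controls, and 2 to 11 and 4 to 15 in icKO libraries. On animal totals it was tested and not called (log2 0.63, SE 0.37, adjusted p = 0.40).

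**Figure D3:**
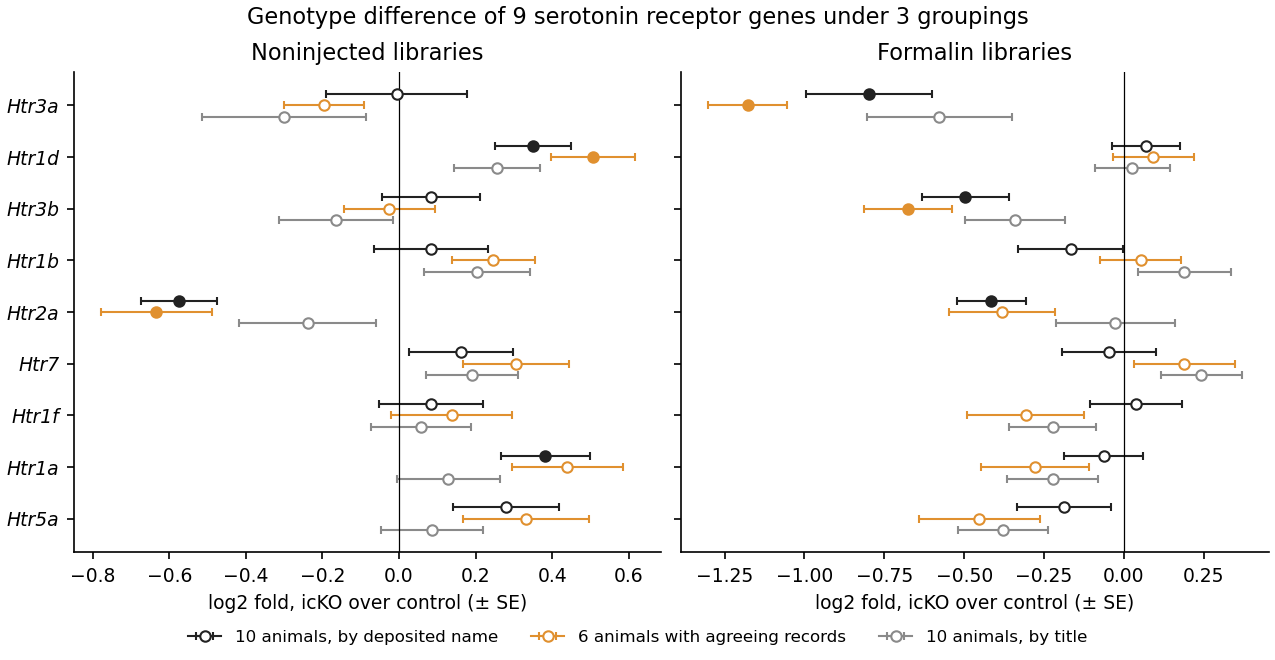
Log2 difference, icKO over control, of the 9 members tested in noninjected and in formalin libraries (points; bars are ± SE), with animals grouped by deposited name, restricted to the 6 animals with agreeing records, or grouped by title; filled points passed an adjusted p of 0.05. By title no point is filled, and Htr3a after formalin lies lowest, at -1.18, in the 6 agreeing animals.

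By title, 0 members were called in any genotype comparison, as were 0.0% of all genes on animal totals, 0.0% in noninjected and 0.0% in formalin ganglia; at an unadjusted p under 0.05 edgeR counted 1815, 1538 and 2222 genes. On the totals of the 6 agreeing animals, 0 members were called, against 0.572% of genes higher and 0.325% lower. Groups by deposited name did not overlap for 1 member (Htr2a) on animal totals, where 4.12% of the genes tested did not overlap. That was so for 0 members in noninjected ganglia, against 8.19% of genes, and for 3 (Htr2a, Htr3a and Htr3b) after formalin, against 5.74%.

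Formalin itself changed no member past the threshold. Within animals, Htr3a was higher after formalin in 4 of 5 controls and lower in 3 of 4 icKO animals, with log2 differences between the libraries of an animal from -0.11 to 0.51 in controls and from -1.002 to 0.12 in icKO animals. The values of Htr3b ran from -0.01 to 0.55 and from -0.67 to 0.06. In the fit, Htr3a was at 0.23 (SE 0.18, edgeR adjusted p = 0.951) in controls and -0.56 (SE 0.19, adjusted p = 0.12) in icKO animals, and Htr3b at 0.23 (SE 0.13, adjusted p = 0.951) and -0.35 (SE 0.13, adjusted p = 0.138). The interaction, which compares those responses, was -0.79 for Htr3a (SE 0.27, adjusted p = 0.126) and -0.58 for Htr3b (SE 0.18, adjusted p = 0.118). Thus the genotype difference of these genes was called after formalin and not before, and the change of that difference itself did not pass.

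Across all genes, 0.0% were called for formalin in controls, 0.0% in icKO animals, 0.0% over both and 0.0% for the interaction; at an unadjusted p under 0.05 edgeR counted 686, 4170, 868 and 4201 genes. DESeq2 called 1 member, Htr3a, for formalin in icKO animals (adjusted p = 0.0482), and 2 for the interaction, Htr3a (adjusted p = 0.0426) and Htr3b (adjusted p = 0.0463). Of all 17931 genes, DESeq2 called 356 higher and 764 lower for formalin in icKO animals. For the interaction it called 289 higher and 561 lower. In the 6 agreeing animals edgeR called Htr3a in both: -0.64 for formalin in icKO animals (SE 0.12, adjusted p = 0.0394), where 2.54% of all genes were called, and -0.98 for the interaction (SE 0.16, adjusted p = 0.0384), where 0.368% were. Those values rest on the formalin libraries of icKO 4 and icKO 5. With each animal as its own block, Htr3a was at -0.52 (SE 0.15, adjusted p = 0.186) for formalin in icKO animals.

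**Figure D4:**
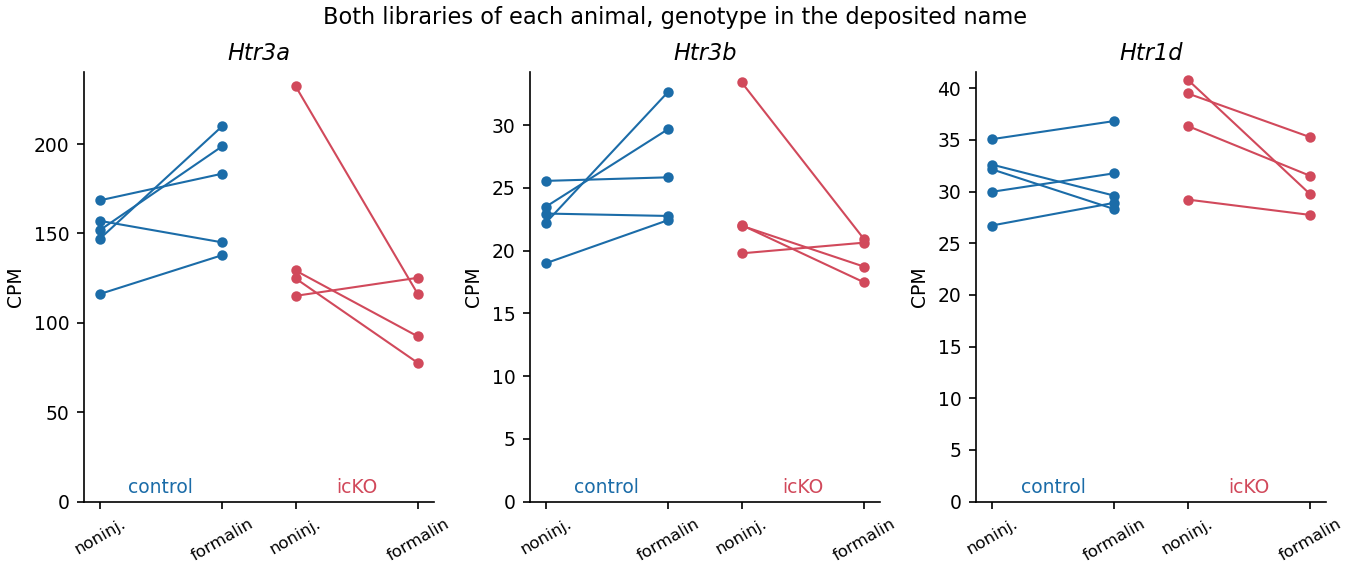
CPM of Htr3a, Htr3b and Htr1d in the noninjected and the formalin library of each animal, joined by a line, for 5 control and 4 icKO animals by deposited name. Htr3a of control 4 goes from 232 to 116 CPM, and Htr1d is lower after formalin in all 4 icKO animals.

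Among the other members, Htr1d was lower after formalin in 4 of 4 icKO animals and in 2 of 5 controls, at -0.29 in icKO animals (SE 0.10, edgeR adjusted p = 0.124). Htr1a and Htr1f were each higher in 5 of 5 controls, at 0.18 (SE 0.11) and 0.17 (SE 0.13), both with an adjusted p of 0.951. The Htr2a response was -0.03 (SE 0.10) in controls and 0.13 (SE 0.11) in icKO animals. The 8 pan-sensory markers had a median log2 formalin difference of -0.31 in icKO animals and 0.12 in controls, with 0 called, and their part in these values was not tested.

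Of the 4 other serotonin receptor genes, Htr5b, a close relative of Htr5a, was higher in noninjected icKO ganglia, at 12.1 ± 3.97 CPM against 7.20 ± 1.37 CPM (n = 5 each; log2 0.76, SE 0.23, edgeR adjusted p = 0.0486). In the 6 agreeing animals it did not pass (0.61, SE 0.17, adjusted p = 0.0615). Htr4, a Gs-coupled receptor, did not pass (13.9 ± 2.09 and 12.01 ± 1.56 CPM; log2 -0.18, SE 0.12). Htr2c and Htr6 were near 0, at 0.126 and 0.428 CPM in noninjected controls, and were not tested in libraries. Of 8 genes of serotonin synthesis, transport and breakdown, 0 were called in any genotype comparison. Tph1, the peripheral enzyme of serotonin synthesis, was at 1.03 ± 0.225 CPM in noninjected controls and 0.5001 ± 0.171 CPM in icKO animals (log2 -1.02, SE 0.33, adjusted p = 0.0591).

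Among genes that carry the receptors' signals, 3 of 8 Gi/o and GIRK channel genes were higher in noninjected icKO ganglia: Kcnj3, a potassium channel subunit opened by Gi/o, at 0.43 (SE 0.11, edgeR adjusted p = 0.0258), Gnaz at 0.41 and Gnai2 at 0.34. The median of this list was 0.38, near the 0.32 of the pan-sensory markers. Of 7 Gq genes, Gna11 (0.37, SE 0.09, adjusted p = 0.0169) and Prkce (0.45, SE 0.12, adjusted p = 0.0331) were higher. Of 12 Gs and cyclic AMP genes, Gnas was higher (0.78, SE 0.15, adjusted p = 0.00736). Of 7 assembly and partner genes, S100a10, an adaptor that brings some serotonin receptors to the membrane, was lower (-0.29, SE 0.09, adjusted p = 0.0413). In the 6 agreeing animals 1 of 8 Gi/o genes (Kcnj3, 0.68) and 1 of 7 Gq genes (Prkce, 0.61) were called higher. Gnaz, Gnai2, Gna11 and S100a10 did not pass there, with edgeR adjusted p-values of 0.0633, 0.0529, 0.0752 and 0.0876. In the Gs list 3 of 12 were called, Gnas (0.77), Prkaca (0.70) and Adcy9 (1.04).

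After formalin, other genes of these lists were called. In the Gs and cyclic AMP list, 3 adenylyl cyclase genes were lower in icKO ganglia: Adcy5 (-0.46, SE 0.11, edgeR adjusted p = 0.0336), Adcy3 (-0.47) and Adcy2 (-0.55). In the Gq list, Plcb2, a phospholipase C of blood cells, was higher (1.38, SE 0.37, edgeR adjusted p = 0.0469). Neutrophil sums were also higher in that group, and their part in the Plcb2 value was not tested. None of the Gi/o or the assembly genes was called. Of the 13 other cys-loop receptor genes, 11 were tested, and the nicotinic subunit Chrna6 was the sole gene of these lists beside Htr2a called on animal totals, higher at 1.38 (SE 0.11, adjusted p = 6.04e-05). Chrna6 was at 82.2 ± 6.29 CPM in noninjected controls and 232 ± 29.1 CPM in icKO animals, and Chrna7 was lower both noninjected (-0.71, SE 0.18) and after formalin (-0.72, SE 0.20). A further nicotinic subunit, Chrnb3, was called higher in noninjected ganglia (1.02, SE 0.24, edgeR adjusted p = 0.0171) and not after formalin (0.16, SE 0.24, adjusted p = 0.772). Its result in the 6 agreeing animals is not given here. Genes of the same channel family as Htr3a thus differed in opposite directions in the same noninjected libraries, Chrna6 and Chrnb3 higher and Chrna7 lower. In the 6 agreeing animals Adcy5, Adcy2 and Plcb2 passed after formalin and Adcy3 did not (-0.56, adjusted p = 0.0758), while Gnai2 of the Gi/o list was called higher (0.42, adjusted p = 0.0484). Chrna6 passed in each genotype comparison of those animals, and Chrna7 in none (adjusted p = 0.294 noninjected and 0.137 after formalin). On their totals Kcnj3 was also called higher (0.53, adjusted p = 0.045) and the nicotinic subunits Chrna3 (-2.49) and Chrnb4 (-3.20) lower. By title, 0 genes of these lists were called in any genotype comparison.

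Between the sexes, compared after the values were seen, no member passed on animal totals. Htr1a was 9.99 to 15.2 CPM in 5 females and 7.52 to 9.83 CPM in 5 males, and Htr1f 7.97 to 10.6 and 6.35 to 7.41 CPM. Neither pair of ranges overlapped, as was so for 1.89% of all genes tested, and neither gene passed edgeR's test over all genes (Htr1a -0.49, SE 0.11, adjusted p = 0.262; Htr1f -0.42, SE 0.10, adjusted p = 0.293), where 0.0669% of genes were called. Htr1d was at -0.28 (SE 0.10), and Htr3a at 0.07 (SE 0.17).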

How the data were processed

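Raw counts per Ensembl gene were deposited for 20 libraries; the authors' tools were STAR 2.7.8a, featureCounts 2.0.1 and bcl2fastq 2.20.0.422, on GRCm39, per the submitters' processing notes. No source used here gives the annotation release or the handling of multi-mapping reads. Libraries did not mark strand, per the labels' protocols. Of 55416 IDs, 52083 had a symbol. The rule for use was over 1000000 counts, which left 19 libraries. The members and lists were chosen with earlier results of these data known.

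CPM were computed with TMM-scaled library sizes, and lengths came from a GRCm38.p6 annotation. Tests used edgeR 4.0.16 (TMM, filterByExpr, robust quasi-likelihood, sex as covariate) in R 4.3.3, on 19 libraries in 4 groups and on 10 animal totals, where icKO 1 has its noninjected library alone. Benjamini-Hochberg adjusted p of 0.05 was the threshold. The SE is the log2 difference over the square root of F. The 19 libraries come from 10 animals, so the library fit counts both libraries of an animal. Names tie the libraries of an animal; deviations of those 9 pairs correlated at 0.0096 to 0.41. DESeq2 1.42.0 and limma 3.58.1 were alternatives. Replicate libraries of a group differed by more than counting error in all 36 pairs (chi-square per degree of freedom 7.36 or more). All members were named, and from each pathway list up to 4 called genes, else those of smallest p. For likeness, the 3 genes of highest Pearson r over animal totals were taken. The scripts were tested on simulated data. With 5 animals a group, the number of animals limits the precision.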

Additional observations from a re-analysis of the deposited data

Results flagged for a closer look

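In 60 groups of 4 to 10 values, Dixon's rule set apart 3 values. Chance gives about 1 in 20 groups, so the number set apart is about what chance alone would give. After formalin, Htr2a of icKO 4 was 18.9 CPM, above the other icKO libraries, the nearest at 17.4 CPM. Htr7 of icKO 3 was 15.98 CPM after formalin, with the nearest control at 12.2 CPM, and 15.4 CPM on animal totals, with the nearest at 11.97 CPM. That total includes the same formalin library. The animal titled icKO 3 is a control by its deposited name, and Htr7 was not called in any comparison. The part of its record in these values was not tested.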

How the results depend on the processing

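Counts of called members by setting were as follows, against 1 on totals and 3 each in noninjected and formalin ganglia. With genotype from the titles, 0 members were called on totals, 0 in noninjected and 0 in formalin ganglia, and Prdm12 differed by -0.73 (exact permutation p = 0.238). In the 6 agreeing animals, 0 were called on totals, 2 noninjected, 2 after formalin, 1 for formalin in icKO animals and 1 for the interaction, and Prdm12 differed by -2.24 (exact permutation p = 0.1, the smallest that 3 against 3 allows). Without a filter the counts were 2 on totals, 2 noninjected, 3 after formalin, 1 for formalin in icKO animals and 2 for the interaction. Of 39085 genes, that setting called 1448 higher and 363 lower on totals, 1560 and 861 noninjected, and 1720 and 409 after formalin. It called 1131 higher and 1072 lower for formalin in icKO animals, and 1445 and 1074 for the interaction. DESeq2 gave 1 and 2 members for the same comparisons. Of 17931 genes it called 356 higher and 764 lower, and 289 and 561. Without the sex term, 1 was called in noninjected and 2 in formalin ganglia, and a fit of the noninjected groups alone called 2. Of 17671 genes, the fit without the sex term called 764 higher and 340 lower noninjected, and 858 and 194 after formalin. The fit of the noninjected groups alone called 727 higher and 448 lower of 17347 genes. After formalin, 0 were called without the icKO 5 formalin library, 0 without the icKO 4 and icKO 5 libraries, and 0 in a fit of the formalin groups alone. Of all genes, those fits called 136 higher and 69 lower of 17847, 51 and 22 of 18148, and 19 and 10 of 18448. Leaving out each animal in turn gave 0 to 1 on totals, 1 to 3 noninjected, 0 to 3 after formalin, 0 to 2 for formalin in icKO animals and 0 to 2 for the interaction. The counts of 2 in the last pair came without control 1. Of 17819 genes, that fit called 963 higher and 1027 lower for formalin in icKO animals, and 849 and 913 for the interaction. Over all fits that left out an animal, 52 to 181 genes were called higher and 24 to 97 lower on totals. In noninjected ganglia 193 to 1424 were called higher and 130 to 821 lower, and after formalin 40 to 1178 and 26 to 307. Those fits tested 19145 to 20042 genes on totals and 17795 to 18024 in libraries. Coding length kept 6 ranks. With the animal as a replicate block, 0 members were called for formalin in either genotype or for the interaction. For genotype, 2 members were called in noninjected and 2 in formalin ganglia. Of 17931 genes, limma-voom with that block called 660 higher and 535 lower noninjected, and 193 and 131 after formalin. Beyond Htr1a (0.37) and Htr3b (-0.48) the block changed no call. The cause of each change was not tested. No called difference changed sign; uncalled values near 0 did when single animals were left out (Htr3a noninjected, -0.18 to 0.06). The data cannot separate neuron number from expression, Htr2b rests on too few counts to compare, and calls near the threshold depend on single animals.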

Other observations

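Over the 10 animal totals, Htr1b and Htr7 varied together (Pearson r = 0.85, Spearman rho = 0.82), as did Htr1d and Htr7 (r = 0.78, rho = 0.77) and Htr1a and Htr1d (r = 0.75, rho = 0.60). Htr3a was unrelated to Htr1a (r = 0.14, rho = -0.01) and to Htr1f (r = -0.02, rho = -0.02). These are descriptions over animals that share genotype groups, sexes and library preparation, out of 36 pairs of members. The gene most like Htr1d was Trappc10 (r = 0.97), and that most like Htr7 was Kcng4 (r = 0.95), a potassium channel subunit. Adamts17 was most like Htr1a (r = 0.95), Rcan2 most like Htr1b (r = 0.97), Zkscan14 most like Htr1f (r = 0.93) and Tent4a most like Htr5a (r = 0.92).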
